A study of Mus musculus with 27 samples.

Results

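The TNF ligand and receptor superfamily was followed through sorted and unsorted cells of mouse lung with and without tumours. Members were taken by symbol: genes named Tnfsf or Tnfrsf with a number, and Tnf, Lta, Ltb, Ltbr, Cd40, Cd40lg, Fas, Fasl, Cd27 and Cd70. The rule found 37 genes, 16 ligands and 21 receptors, among the 16024 genes of the expression table. All mice were C57BL/6. Tumour lungs had been seeded through the tail vein with HKP1, a single mouse lung cancer line, and were taken between day 20 and day 25; wild-type (WT) lungs bore no tumour.

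RNA sequencing gave 27 libraries in 10 groups. The macrophage gate took CD11c+CD11b+ cells in tumour lung, with n = 3, but CD11c+CD11b- cells in WT lung, with n = 2, so these groups differ in CD11b as well as in tumour. CD11b with Ly6C marked the monocytes, 2 libraries from each lung. CD11b with Ly6G marked the neutrophils, 3 from each. Epithelium was taken by Epcam after cells with CD11b or CD11c were set aside, 3 from each, and total lung cells, 3 from each, were not sorted. The Epcam gate of tumour lung does not part tumour cells from the host's own epithelium. Which libraries stem from different animals is not stated in the labels; p-values therefore measure only the spread between these samples, which may be technical.

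Ligands of this superfamily are mostly trimeric proteins on the cell surface, some of which are cut off and released. Their receptors either carry a death domain, through which they can start apoptosis or necroptosis, or recruit TRAF adaptors and switch on NF-kappaB. In the lung TNF itself is an early product of activated macrophages and neutrophils, while other members steer lymphocyte survival and costimulation, lymphoid tissue, bone turnover and tissue repair.

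Levels are FPKM, fragments scaled for transcript length and for the number mapped, which can be set side by side between genes. Differences are tumour minus WT on the log2(FPKM + 1) scale with their standard error (SE), which understates changes of genes under a few FPKM. A member was called higher or lower where limma gave an adjusted p under 0.05 over all genes tested, and genes had to reach 1 FPKM in 2 of the libraries compared to be tested. Per-library values are listed in the order of the replicate numbers in the sample titles, which run on across cell types.

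Relative depth, read roughly from the spacing of the lowest FPKM, ran from 0.611 to 1.57, with replicate 1 of tumour macrophages set to 1. It was 0.611 to 0.877 in tumour total lung libraries and 1.24 to 1.51 in their WT counterparts. Libraries sorted for CD11b, CD11c or Epcam held its gene, Itgam, Itgax or Epcam, but the genes of Ly6C and Ly6G were not read. Sftpc and Sftpb, the surfactant genes of type II cells, are listed at 0 in all epithelial libraries and S100a9 at 0 in WT neutrophils. Summed monocyte markers were 2346 to 2563 FPKM in tumour and 1969 to 2590 in WT monocytes. Tumour neutrophils overlapped these, at 1938 to 2465 FPKM. Summed neutrophil markers were 193 and 2909 FPKM in the WT monocyte libraries. Endothelial markers were called lower in tumour libraries for 8 of 8 genes in neutrophils, epithelial cells and total lung cells, and for 7 of 8 in macrophages.

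Across the 27 libraries, 12 members reached 1 FPKM in every library and 1, Tnfsf18, the ligand of GITR, in none. The heat map of all members shows the ligands dominated by Tnf in tumour lung and the receptors by Tnfrsf1a and Tnfrsf1b, the receptors of TNF, in neutrophils. In tumour lung, 32 members reached 1 FPKM in a sorted library, and for 20 of them the lowest library of the leading population lay above every library of the other sorted populations. Over all genes this held for 64.7% in tumour lung. In WT lung it held for 16 of 29 members, against 66.8% of all genes, so the members' shares lay at or below the background.

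**Figure D1:**
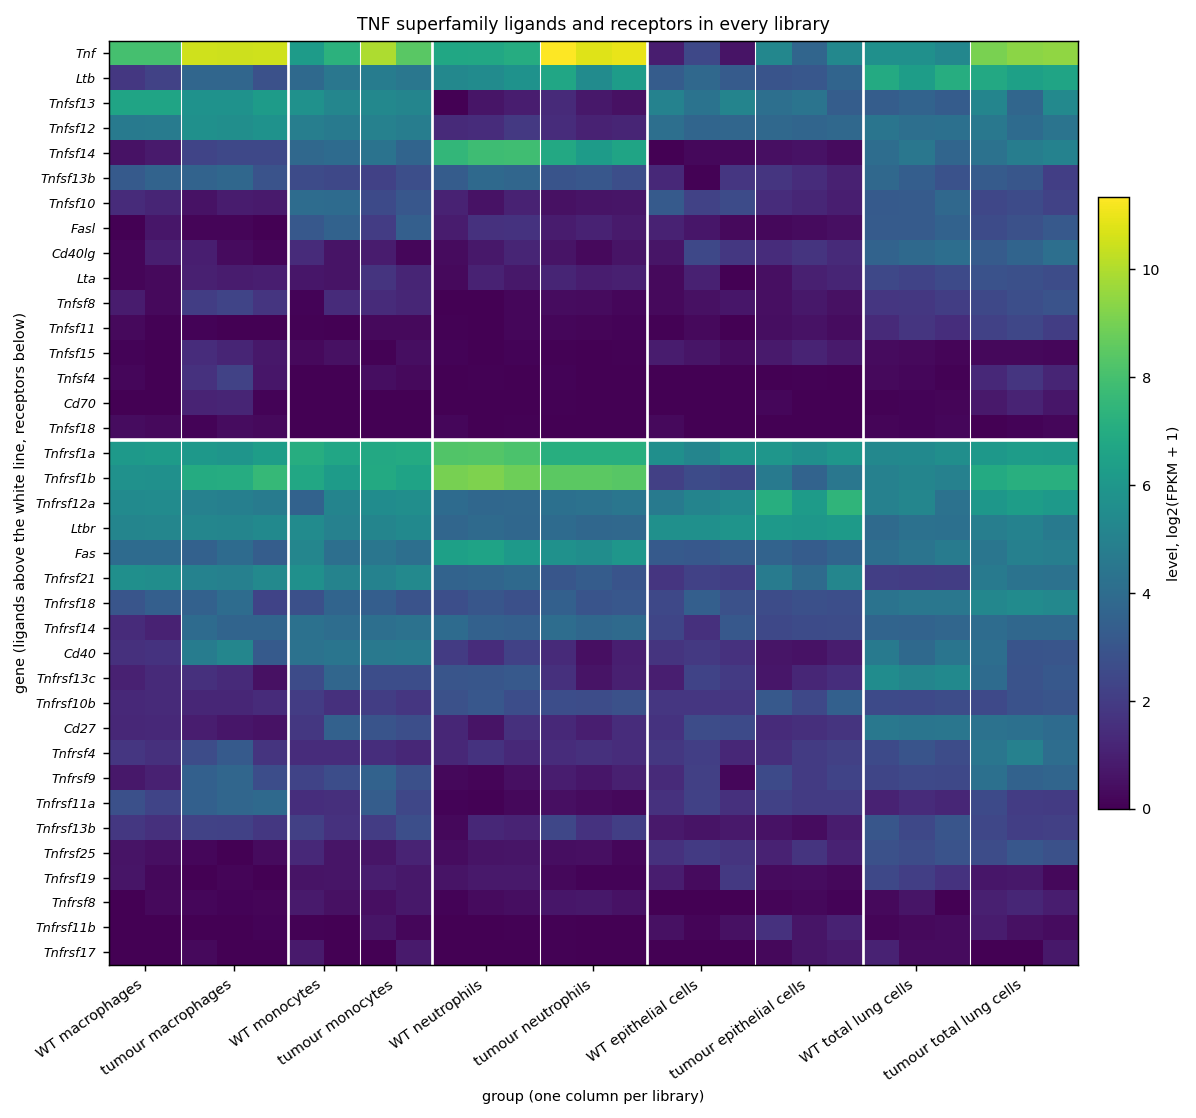
Level of each member, as log2(FPKM + 1), in each of the 27 libraries, with 1 column per library grouped by cell preparation and lung. Ligands stand above the white line and receptors below it, each ordered by mean level; the brightest cells are Tnf in the tumour neutrophil libraries, at 1776 to 2602 FPKM.

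Neutrophils led in both lungs for Tnfsf14 (the ligand LIGHT), Ltb (lymphotoxin beta), Fas, Tnfrsf1a and Tnfrsf1b. Monocytes led in both lungs for the death ligands Fasl and Tnfsf10 and for the lymphocyte receptors Cd27 and Tnfrsf13c, though for these receptors the libraries of WT monocytes overlapped those of another population. Their libraries also held NK cell markers, whose sum was 305 to 770 FPKM in tumour monocytes and 397 to 795 in WT monocytes. B cell markers summed to 153 to 154 and 160 to 235 FPKM, and endothelial markers to 82.4 to 224 and 472 to 734. Tnfsf10 averaged 6.13 FPKM in tumour and 14.9 in WT monocytes. The part of NK, B and endothelial cells in the levels was not tested. Epithelial cells led for Ltbr, the lymphotoxin receptor, and macrophages for Tnfsf13, which encodes APRIL. Tnf changed its leading population from macrophages in WT lung, at a mean of 256 FPKM against 115 in neutrophils, to neutrophils in tumour lung, at 2127 against 1446 in macrophages.

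In macrophages 12 of 27 members tested were higher in tumour lung and 4 lower, where 20.3% of all genes tested were higher and 17.7% lower. The median difference was 0.82 over members and 0.00 over all genes. The member median depended on the setting and on single libraries. It was 0.21 and 0.23 without tumour replicate 1 or 2, and 0.06 with no filter. With 5 FPKM added before the logarithm in place of 1 it was 0.22, and with 0.1 FPKM added 1.04. Ligands made up 7 of the 12 that rose, among 11 ligands tested, and receptors 5 among 16. Of these ligands Tnfsf4, Tnfsf8, Tnfsf14 and Tnfsf15 were under 1 FPKM in every WT macrophage library. They passed the filter only through tumour libraries and could hardly be called lower, so these counts do not compare ligands with receptors. Monocyte markers were higher in tumour macrophages for 4 of 6 genes, with sums of 606 to 658 FPKM beside 208 to 217, and neutrophil markers for 4 of 6, with sums of 180 to 546 beside 42.8 to 67.5; their part in the members' changes was not tested. Without either of the WT libraries, replicate 1 or 2, no member was called lower in macrophages. Over all genes 2050 were higher and 1788 lower there, a split that turned to 1691 and 2222 with upper-quartile scaling and to 1801 and 2178 after quantile normalization.

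In neutrophils more members were called lower than higher: 3 of 22 were higher, against 33.3% of all genes, and 8 were lower, against 25.8%, with a median of -0.24 beside 0.11 over all genes. In epithelial cells 5 of 25 members were higher, against 14.9% of all genes, and 2 lower, against 8.89%. Without tumour replicate 9 or WT replicate 8 only 2 were higher in epithelial cells, and the number lower fell to 0 without tumour replicate 9 and to 1 without tumour replicate 11 or WT replicate 8 or 10. Over all genes 1765 were higher and 1051 lower in epithelial cells, and 2452 and 676 with upper-quartile scaling. In total lung cells 14 of 31 were higher and 7 lower, against 22.1% and 20.4% of all genes. The number lower was 3 without tumour replicate 13 or WT replicate 11 or 13, and 4 without tumour replicate 14.

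Monocytes gave no call. limma called 0 of 27 members in either direction, as it called 0% of all genes higher and 0% lower in that comparison of 2 libraries with 2; 5 members had an unadjusted p under 0.05. A fit of all 10 groups together, which borrows its spread from the other populations, called 3 members higher and 1 lower in monocytes, and 1 was called higher without tumour replicate 5. Over the 5 comparisons, 14 members were called only higher, 7 only lower and 8 in both directions in different cells, and 8 were never called.

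**Figure D2:**
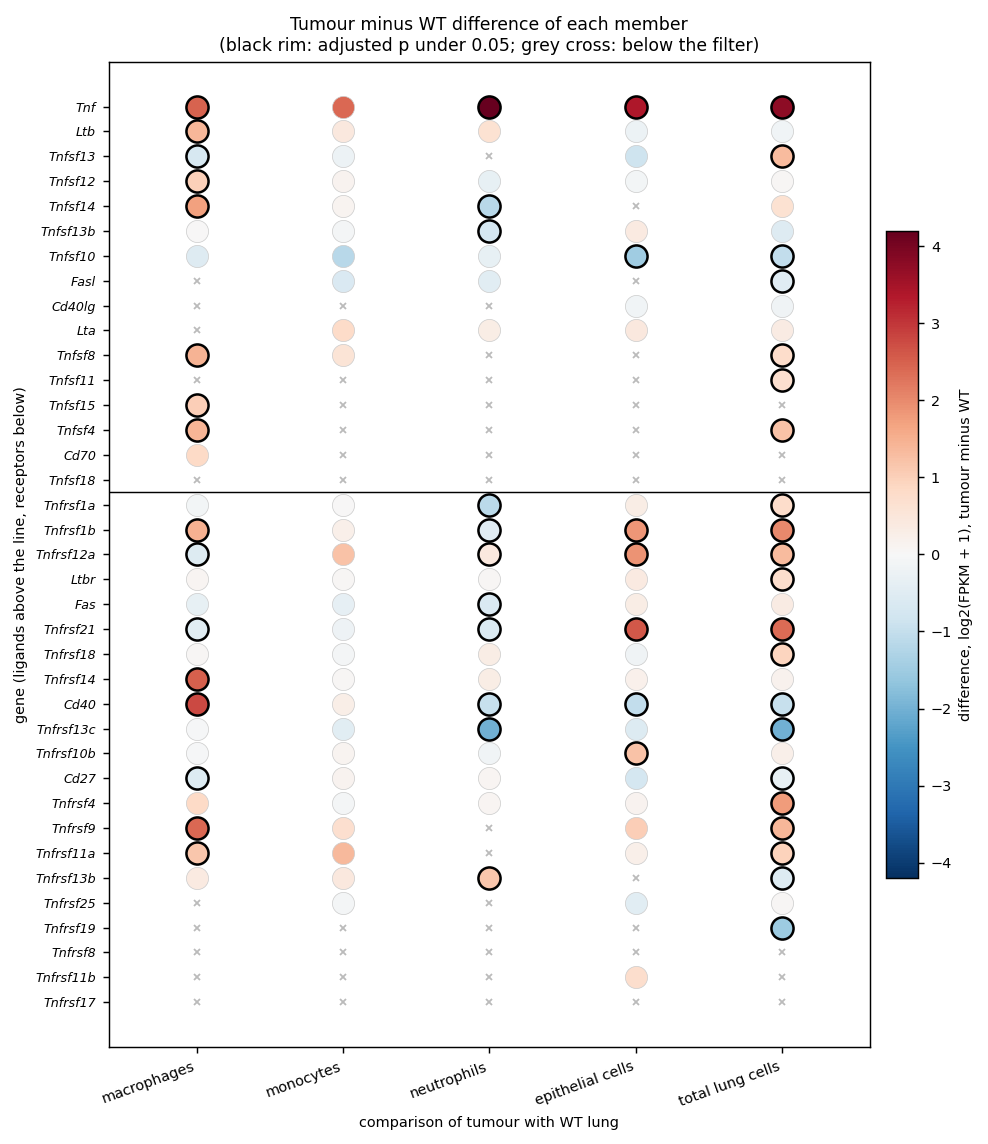
Difference of each member between tumour and WT lung, on the log2(FPKM + 1) scale, in the 5 comparisons; red is higher in tumour lung, blue lower, a black rim marks an adjusted p under 0.05 and a grey cross a member below the filter. Tnf is red in all 5 columns and rimmed in 4, while Cd40 is red and rimmed in macrophages and blue and rimmed in neutrophils, epithelial cells and total lung cells.

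Tnf, the founding ligand of the family, rose in 4 of the 5 preparations. Tumour neutrophils held 2602, 1776 and 2002 FPKM and WT neutrophils 106, 111 and 128. The lowest tumour library was thus far above the highest WT library, and the mean was 18.5-fold higher (difference 4.18, SE 0.16, adjusted p = 7.93e-07). In macrophages the levels were 1461, 1420 and 1456 FPKM in tumour lung and 256 and 256 in WT lung, a 5.65-fold difference of means (2.49, SE 0.11, adjusted p = 1.6e-05). WT macrophages already carried more Tnf than any other WT group, and the rise in neutrophils exceeded that in macrophages (interaction of macrophages minus neutrophils -1.69, SE 0.21, adjusted p = 5.2e-05).

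Total lung cells held 540, 663 and 694 FPKM of Tnf in tumour lung and 51.2, 50.7 and 37.3 in WT lung. The groups were far apart, with a 13.6-fold higher mean (difference 3.75, SE 0.16, adjusted p = 2.36e-05). In unsorted cells, more or fewer cells of a type cannot be told apart from more or less RNA per cell. Neutrophil markers were higher there for 5 of 7 genes, their sum running from 3632 to 9139 FPKM in tumour lung and from 1826 to 2686 in WT lung, and macrophage markers were higher for 8 of 8; their part in the rise of Tnf was not tested.

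Epithelial cells carried the least Tnf of the sorted groups. Tumour libraries held 37.2, 11.8 and 37.8 FPKM and WT libraries 0.900, 4.48 and 0.512, a 14.7-fold difference of means (3.41, SE 0.60, adjusted p = 0.0128). The groups did not overlap, but WT replicate 9 and tumour replicate 10 came closest to each other. Macrophage markers moved in the same libraries: 4 of 8 were called higher, none was listed at 0 in a whole group, and their sum was 129, 27.4 and 74.1 FPKM in tumour epithelium and 11, 23 and 8.07 in WT epithelium, with tumour replicate 10 lowest as for Tnf. Ptprc, the pan-leukocyte gene CD45, lay at 13.8 to 20.9 FPKM in tumour and 16.3 to 37.6 in WT epithelium; the part of leukocytes in the epithelial Tnf was not tested. The call was lost without tumour replicate 9 or without WT replicate 8 (adjusted p = 0.0577 and 0.0612, in a range over alternatives from 2.56e-06 to 0.0612).

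Monocytes of tumour lung held 977 and 343 FPKM of Tnf and those of WT lung 74.4 and 153. The groups did not overlap, yet tumour replicates 4 and 5 differed widely and the difference of 2.43 (SE 0.56) gave an adjusted p of 0.186. It passed without tumour replicate 5, at 3.18 and an adjusted p of 0.0311, and in the fit of all 10 groups (0.00499), in a range over alternatives up to 0.543.

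**Figure D3:**
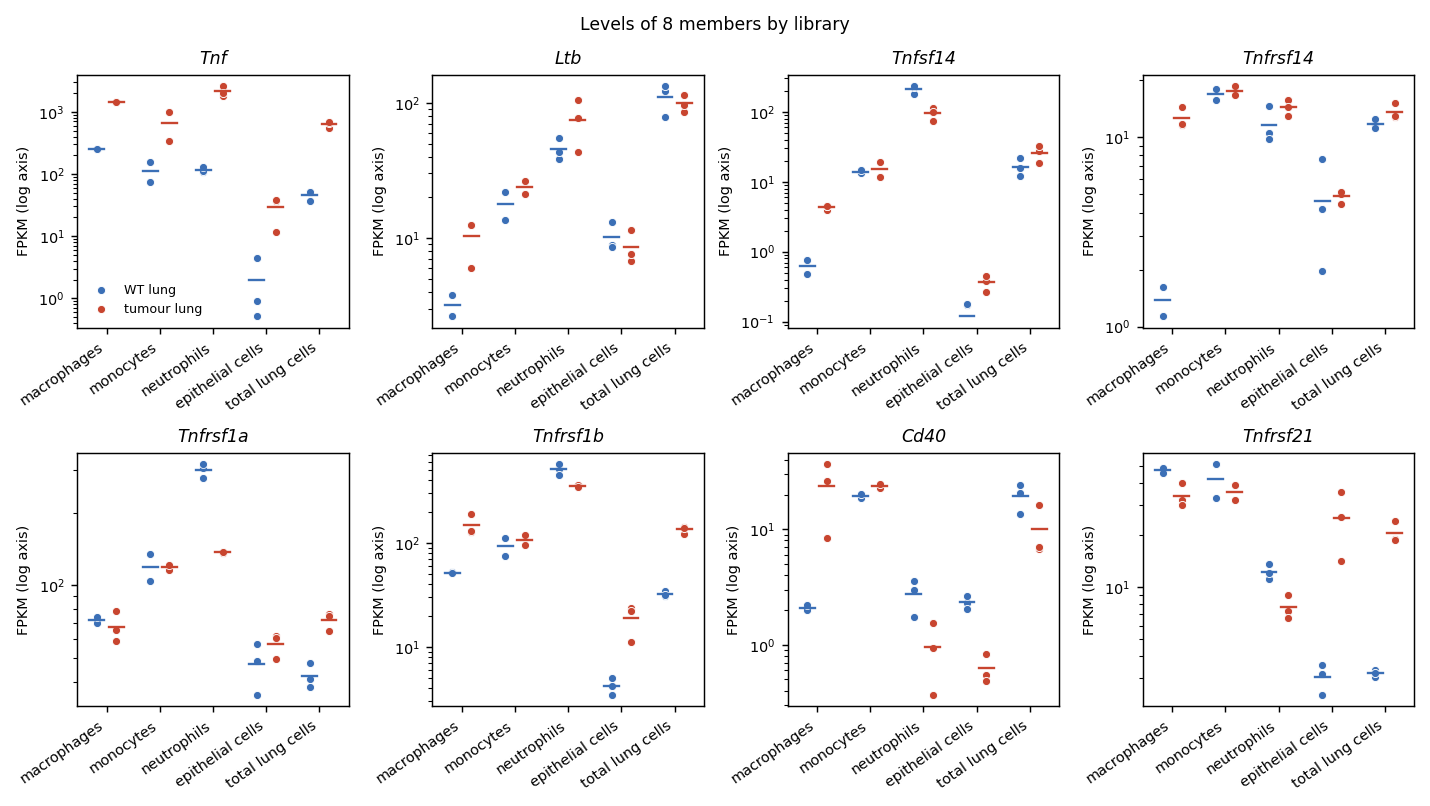
FPKM of 8 members in each library, on log axes that differ between panels; points are libraries, short lines are group means, blue is WT lung and red tumour lung, and a value of 0 (Tnfsf14 in 1 WT epithelial library) has no point. Tnf is higher in tumour libraries of every preparation, whereas Tnfsf14, Tnfrsf1a, Tnfrsf1b and Cd40 are lower in tumour neutrophils than in WT neutrophils.

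Tnf made up a larger share of the ligand RNA in tumour lung. That share of the summed FPKM of the 16 ligands was 91.8%, 93.2% and 91.5% in tumour neutrophils and 31.4%, 27.7% and 29.2% in WT neutrophils. In macrophages the share was 90.7% to 91.1% in tumour lung and 64.4% and 65.1% in WT lung. Total lung cells went from 14.1% to 22.3% in WT libraries to 69.7% to 77.7% in tumour libraries. In epithelial cells it ranged from 0.775% to 7.48% in WT lung and from 19.6% to 48.1% in tumour lung, with no overlap between groups in any of these preparations. These shares are descriptions and follow from the levels of Tnf.

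Tnf lies between the lymphotoxin genes on chromosome 17, and only Tnf of these 3 was called in neutrophils, epithelial cells and total lung cells. In GENCODE M21 (GRCm38) Ltb spans chr17:35194439-35196320 on the plus strand, Tnf chr17:35199381-35202007 and Lta chr17:35203165-35205351, both on the minus strand. Ltb and Lta encode the subunits of the membrane form of lymphotoxin, the form that acts through Ltbr. The promoter sequences of these neighbours are shown because the genes sit close together and Tnf alone was called in those preparations. RefSeq (GRCm38.p6) gives for each the bases before its start, printed 5′ to 3′ on the gene's strand, up to 250 bases and only as far as no annotated exon of the gene begins. Capitals mark a match to the kappaB consensus, the short motif bound by NF-kappaB dimers, searched on both strands; overlapping matches count as 1.
Tnf, chr17:35202008-35202257, minus strand: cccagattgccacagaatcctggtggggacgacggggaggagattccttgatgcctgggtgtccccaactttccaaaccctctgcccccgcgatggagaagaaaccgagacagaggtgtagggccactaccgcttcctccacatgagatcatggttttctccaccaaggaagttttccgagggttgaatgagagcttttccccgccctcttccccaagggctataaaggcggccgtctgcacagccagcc
Ltb, chr17:35194257-35194438, plus strand: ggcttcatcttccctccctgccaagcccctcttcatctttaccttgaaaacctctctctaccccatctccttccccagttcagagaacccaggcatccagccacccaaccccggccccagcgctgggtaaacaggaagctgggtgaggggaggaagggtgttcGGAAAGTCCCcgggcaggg
Lta, chr17:35205352-35205601, minus strand: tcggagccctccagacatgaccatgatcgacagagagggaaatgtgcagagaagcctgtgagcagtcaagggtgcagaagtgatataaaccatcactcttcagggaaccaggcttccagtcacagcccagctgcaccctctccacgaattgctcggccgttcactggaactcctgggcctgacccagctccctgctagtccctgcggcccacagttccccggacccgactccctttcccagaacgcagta

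Ltb has 1 match, on the opposite strand, at positions -87 to -78 from its RefSeq start, and the windows of Tnf and Lta hold none. Among all 32851 RefSeq promoters, 3.9% hold a match in the 250 bases before the start. Of the 34 promoters that belong to 30 members, 3 hold one: those of Ltb, Tnfrsf8 and Tnfrsf9, the last within an exon of another transcript of the gene and therefore not printed. The AP-1 motif TGANTCA was found in 6 of these promoters, of Fas, Tnfrsf8, Tnfrsf9, Tnfsf13, Tnfsf13b and Tnfsf14, against 6.75% of all. A match is a description of letters, not a site in use, and its absence from these windows says nothing of sites elsewhere.

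Ltb was carried most by neutrophils and total lung cells. It rose in macrophages, from 2.63 and 3.78 FPKM in WT lung to 12.6, 12.5 and 6.04 in tumour lung (difference 1.38, SE 0.31, adjusted p = 0.0133), a call lost without WT replicate 1 (adjusted p = 0.1, in a range from 0.000272 to 0.1). In neutrophils it was 105, 43.3 and 77.1 FPKM beside 38.7, 43.2 and 54.9, with overlapping groups and no call (adjusted p = 0.0811). Lta stayed under 2.5 FPKM in every sorted library and was never called; in total lung cells it was 5.24 to 6.36 FPKM in tumour and 3.81 to 4.88 in WT libraries.

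Tnfsf14, the LIGHT ligand of both Ltbr and the receptor HVEM, is the ligand that moved in opposite directions in the myeloid cells. WT neutrophils held 180, 227 and 233 FPKM and tumour neutrophils 115, 74.0 and 98.8. The highest tumour library lay well below the lowest WT library (difference -1.16, SE 0.18, adjusted p = 0.000673). Macrophages carried little but more in tumour lung, with 3.95, 4.54 and 4.52 FPKM beside 0.484 and 0.773 (1.72, adjusted p = 0.000293). Its receptor gene Tnfrsf14, HVEM, rose in macrophages as well, from 1.62 and 1.13 FPKM to 14.5, 11.6 and 11.7, a 9.13-fold higher mean (2.52, SE 0.16, adjusted p = 6.43e-05). In every other preparation Tnfrsf14 was not called. Ltbr was level in macrophages, monocytes and neutrophils, with differences of 0.07, 0.04 and 0.04, none called, and was called higher in total lung cells, from 14.1, 17.7 and 17.0 FPKM to 28.3, 31.5 and 24.6 (0.75, adjusted p = 0.00343).

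Among the ligands of B cell survival, Tnfsf13 and Tnfsf13b (BAFF) split by cell type. In macrophages Tnfsf13 was 54.0, 53.5 and 72.9 FPKM in tumour lung and 99.0 and 97.0 in WT lung (difference -0.71, SE 0.15, adjusted p = 0.0111). In unsorted lung it was called higher, with 35.1, 12.2 and 39.0 FPKM beside 9.24, 11.1 and 8.79 (1.33, SE 0.39, adjusted p = 0.0275), and tumour replicate 13 stood close to the WT range. The summed macrophage markers there were 1096, 597 and 807 FPKM beside 122 to 163, also lowest in tumour replicate 13, and their part was not tested. Neither call was stable: the first was lost without either WT library (adjusted p = 0.0818 and 0.072, in a range from 0.000158 to 0.166) and the second without any library but tumour replicate 13 (range 0.000325 to 0.0868). Tnfsf13b fell in neutrophils, from 8.83, 13.6 and 12.5 FPKM to 6.68, 7.51 and 5.58 (-0.72, adjusted p = 0.00605), a call lost when all 10 groups were fitted together (adjusted p = 0.0943, the highest in a range from 0.00229). Tnfsf12, encoding TWEAK, rose in macrophages from 23.4 and 25.7 FPKM to 50.3, 47.1 and 54.5 (1.01, SE 0.11, adjusted p = 0.000551). Tnfsf12 and Tnfsf13 lie 0.466 kb apart on chromosome 11 and share a read-through gene, Tnfsfm13, and an antisense gene; whether the counting used strand is not given in the sources used here, so the division of reads between them is uncertain.

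Of the death ligands, Tnfsf10 and Fasl were called only lower. Tnfsf10, which encodes TRAIL, fell in epithelial cells from 8.25, 3.75 and 5.03 FPKM to 1.73, 1.34 and 0.913 (difference -1.48, SE 0.29, adjusted p = 0.0169). It also fell in total lung cells, from 8.38, 8.57 and 13.4 FPKM to 4.36, 5.10 and 3.72 (-1.02, adjusted p = 0.00474). Endothelial markers fell in the same libraries, their sum going from 124 to 264 FPKM in WT epithelium to 7.18 to 39.4 in tumour epithelium, and from 334 to 684 to 57.6 to 144 in total lung cells; their part was not tested. The epithelial call for Tnfsf10 was lost without tumour replicate 9 or 11 or WT replicate 8 or 10, with adjusted p up to 0.165 over all alternatives. Fasl, the ligand of Fas on cytotoxic cells, was called lower in total lung cells, at 4.98, 6.07 and 8.07 FPKM beside 8.71, 8.55 and 10.8 (-0.51, adjusted p = 0.0488). NK cell markers fell there for 5 of 5 genes, their sum going from 431 to 529 FPKM in WT lung to 118 to 194 in tumour lung, and their part was not tested. This call was lost without any library but tumour replicate 14 (adjusted p up to 0.164 over all alternatives).

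Several ligands of lymphocyte costimulation were called higher in macrophages or total lung cells. Tnfsf4 (the ligand of OX40), Tnfsf8 (of CD30) and Tnfsf15, a ligand of endothelial and T cells, averaged 2.16, 3.15 and 1.20 FPKM in tumour macrophages beside 0.0734, 0.529 and 0.0502 in WT macrophages, and all 3 were called higher. All 3 passed the filter there only through tumour libraries. Tumour macrophage replicate 3 was the lowest tumour library for each, at 0.634, 2.33 and 0.643 FPKM, as it was for Ltb. The dendritic cell marker sum was lowest there too, at 133 FPKM beside 372 and 613 in replicates 1 and 2. Of the 6 dendritic cell markers tested in macrophages, 2 were called higher and 2 lower. The part of dendritic cells in these ligands was not tested. In total lung cells Tnfsf4, Tnfsf8 and Tnfsf11, which encodes RANKL, were called higher as well, at means of 1.68, 5.55 and 3.74 FPKM beside 0.127, 2.78 and 1.92. Cd70, the ligand of Cd27, and Cd40lg, the ligand of Cd40, were never called, and Cd40lg averaged 12.3 FPKM in tumour and 13.7 in WT total lung cells.

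The TNF receptors themselves, Tnfrsf1a with a death domain and Tnfrsf1b without, moved unequally. In neutrophils both fell while Tnf rose. Tnfrsf1a went from 307, 317 and 277 FPKM in WT lung to 137, 137 and 138 in tumour lung, a 2.19-fold lower mean (difference -1.12, SE 0.11, adjusted p = 6.76e-05). Tnfrsf1b, the highest receptor of neutrophils, went from 511, 568 and 452 FPKM to 360, 362 and 342 (-0.52, SE 0.12, adjusted p = 0.00642). The fall of Tnfrsf1b was not called after quantile normalization (adjusted p = 0.386, the highest in a range from 0.00248).

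Tnfrsf1b rose in macrophages, epithelial cells and total lung cells and was not called in monocytes. Tumour macrophages held 127, 129 and 191 FPKM and WT macrophages 52.2 and 51.0, a 2.89-fold higher mean (difference 1.48, SE 0.19, adjusted p = 0.00123), while Tnfrsf1a was 58.6 to 78.3 and 69.7 to 74.3 FPKM with no call. Epithelial cells went from 3.47, 4.99 and 4.2 FPKM of Tnfrsf1b to 23.5, 11.1 and 21.9 (1.87, SE 0.29, adjusted p = 0.00904); tumour replicate 10, with the lowest macrophage marker sum of the tumour epithelial libraries, was again the lowest. Total lung cells rose 4.18-fold, from 30.9, 34.3 and 31.2 FPKM to 122, 141 and 140 (2.03, SE 0.10, adjusted p = 3.89e-05). Tnfrsf1a rose less there, from 38.0, 40.9 and 47.7 FPKM to 64.8, 76.3 and 74.8 (0.76, adjusted p = 0.00242). In epithelial and total lung cells the macrophage marker sums given above were higher in tumour lung as well. Among tumour total lung libraries that sum, 1096, 597 and 807 FPKM, did not follow the order of Tnfrsf1b. The neutrophil marker sum there was 3632, 6906 and 9139 FPKM, beside 1826 to 2686 in WT lung. Tumour neutrophils averaged 355 FPKM of Tnfrsf1b and tumour macrophages 149. The part of macrophages and neutrophils in these rises was not tested.

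The ratio of Tnfrsf1b to Tnfrsf1a FPKM within each library was higher in tumour lung in every preparation but monocytes. It was 1.94 to 2.44 in tumour macrophages and 0.686 and 0.749 in WT macrophages. In neutrophils it was 2.48 to 2.65 beside 1.63 to 1.79, in epithelial cells 0.222 to 0.382 beside 0.0709 to 0.141, and in total lung cells 1.85 to 1.89 beside 0.654 to 0.840. Monocytes overlapped, at 0.785 and 1.03 in tumour lung and 0.713 and 0.823 in WT lung. A scaling by 1 factor per library leaves the ratio as it is; it was given no test of its own.

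**Figure D4:**
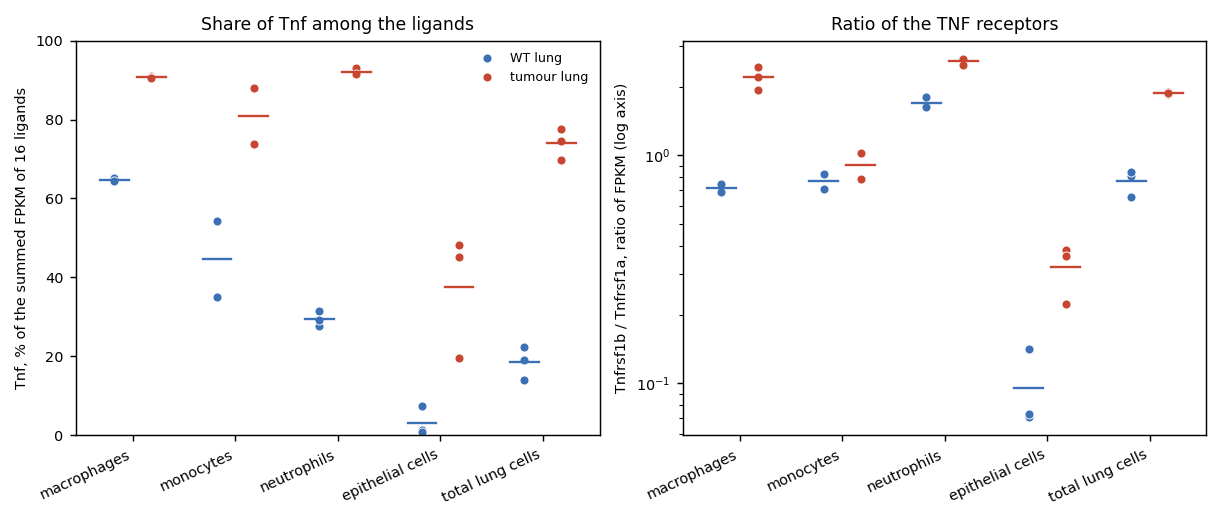
Left, the share of Tnf in the summed FPKM of the 16 ligands, in percent; right, the ratio of Tnfrsf1b to Tnfrsf1a FPKM on a log axis; points are libraries, short lines are group means, blue is WT lung and red tumour lung. Tumour libraries lie above WT libraries in both panels for macrophages, neutrophils, epithelial cells and total lung cells, and the ratio overlaps in monocytes.

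Cd40, the receptor through which helper T cells license B cells and antigen-presenting cells, rose in macrophages and was called lower in 3 other preparations. Tumour macrophages held 26.3, 36.5 and 8.39 FPKM and WT macrophages 1.99 and 2.20 (difference 2.78, SE 0.53, adjusted p = 0.00731). Tumour replicate 3 was well below the other tumour libraries. The dendritic cell markers followed the same order, with a sum of 372, 613 and 133 FPKM in the tumour libraries and 77.5 and 71.1 in the WT libraries, 2 of 6 called higher and 2 lower. Within that list Ccr7 and Fscn1 were higher in tumour macrophages and Xcr1 and Clec9a lower, and the part of dendritic cells in the Cd40 level was not tested. Tnf did not share this order, since replicate 3 held 1456 FPKM. Without tumour replicate 3 the difference was 3.37, and the call was lost without WT replicate 1 (adjusted p = 0.0532, in a range from 1.57e-05 to 0.0532).

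In the other preparations Cd40 was level or lower. Neutrophils went from 2.96, 1.75 and 3.60 FPKM to 1.53, 0.369 and 0.941 (difference -0.96, SE 0.26, adjusted p = 0.0104), and epithelial cells from 2.28, 2.66 and 2.03 to 0.549, 0.490 and 0.836 (-1.03, SE 0.21, adjusted p = 0.0183). Total lung cells held 16.1, 6.73 and 7.06 FPKM in tumour and 24.3, 13.7 and 20.4 in WT lung; the groups overlapped (-0.97, adjusted p = 0.0488). The epithelial call was lost without tumour replicate 9 or WT replicate 8 (adjusted p = 0.0906 and 0.0668, in a range from 0.0127 to 0.188), and the call in total lung cells without tumour replicate 13 or 14 or WT replicate 11 or 13 (range 0.00649 to 0.314). Monocytes kept high levels in both lungs, 22.9 and 24.5 FPKM in tumour and 18.7 and 20.1 in WT lung, without a call (0.28, adjusted p = 0.519). B cells are a major source of Cd40, and their markers were lower in tumour lung for 7 of 7 genes in neutrophils, 6 of 6 tested in epithelial cells and 7 of 7 in total lung cells. The B cell marker sum was 8.36 to 60.6 FPKM in tumour and 179 to 257 in WT neutrophils, 30.6 to 44.1 and 87.6 to 153 in epithelial cells, and 182 to 488 and 821 to 1454 in total lung cells; none of the 7 was listed at 0 in a whole group, and their part was not tested.

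Receptors of BAFF and APRIL moved with or against those markers. Tnfrsf13c, the BAFF receptor of mature B cells, fell in neutrophil libraries from 6.98, 7.09 and 8.09 FPKM to 2.01, 0.519 and 1.0 (difference -2.0, SE 0.23, adjusted p = 0.000155). In total lung cells it fell from 44.2, 35.2 and 41.0 FPKM to 14.6, 6.52 and 7.59 (-2.03, SE 0.26, adjusted p = 0.00104). In both preparations the tumour library with the most Tnfrsf13c, replicate 6 of neutrophils and replicate 12 of total lung, also had the highest B cell marker sum of its group, at 60.6 and 488 FPKM. Tnfrsf13b, the receptor TACI, rose in neutrophils instead, from 0.193, 1.42 and 1.21 FPKM to 4.34, 2.12 and 3.32 (1.17, adjusted p = 0.00757), against the fall of the B cell markers. Macrophage markers were higher in the same libraries for 4 of 5 genes tested, with sums of 408, 263 and 387 FPKM beside 155 to 170. Among the tumour libraries these sums ran in the same order as Tnfrsf13b. Tumour macrophage libraries themselves held 2.61 to 3.66 FPKM of Tnfrsf13b, at macrophage marker sums of 2170 to 2938. The part of macrophages was not tested. In total lung cells Tnfrsf13b was called lower, at 4.39, 3.30 and 3.49 FPKM beside 7.13, 4.43 and 6.84 (-0.58, adjusted p = 0.0381). That call was lost without tumour replicate 13 or 14 or WT replicate 11 or 13 (adjusted p up to 0.275 over all alternatives). Cd27, a receptor of T and memory B cells, was called lower in total lung cells at 18.2, 17.2 and 14.4 FPKM beside 22.3, 20.5 and 21.2 (-0.35, adjusted p = 0.0394), a call lost without any library but tumour replicate 12.

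Tnfrsf4, Tnfrsf18 and Tnfrsf9, receptors of T cell costimulation, rose in total lung cells. Tnfrsf4, which encodes OX40, went from 4.90, 6.68 and 5.23 FPKM to 20.8, 31.0 and 15.8 (difference 1.79, SE 0.23, adjusted p = 0.00112). Tnfrsf18, GITR, went from 18.7, 21.4 and 21.6 FPKM to 37.3, 43.7 and 38.8 (0.92, SE 0.11, adjusted p = 0.000697). Both lie on chromosome 4, 9.552 kb apart, and no sorted library exceeded 8.31 FPKM of Tnfrsf4 or 15.3 FPKM of Tnfrsf18. Tnfrsf9, 4-1BB, rose from 4.24, 4.76 and 4.43 FPKM to 17.5, 10.9 and 12.1 (1.38, adjusted p = 0.000926). The summed T cell markers were 451 to 465 FPKM in tumour and 478 to 516 in WT lung, with 1 of 10 higher and 1 lower; the gene of regulatory T cells, Foxp3, was the one that rose, from 1.65, 2.18 and 2.15 FPKM to 6.35, 6.68 and 3.03. The part of regulatory T cells, which carry OX40 and GITR, was not tested.

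Tnfrsf9 and Tnfrsf11a, the receptor RANK, also rose in macrophages. Tnfrsf9 went from 0.675 and 1.04 FPKM to 10.2, 12.3 and 5.51, a 10.9-fold higher mean (difference 2.42, SE 0.30, adjusted p = 0.00118). Tumour replicate 3 was again the lowest, as for Cd40 and the dendritic cell markers. Tnfrsf11a went from 5.73 and 4.03 FPKM to 10.1, 12.3 and 13.9 (1.16, SE 0.18, adjusted p = 0.00323), and there replicate 3 was the highest. Tnfrsf9 overlaps Camta1 on the opposite strand, so reads of these genes cannot be told apart if strand was not used.

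In epithelial cells the receptors Tnfrsf21, Tnfrsf10b and Tnfrsf12a (Fn14, an injury receptor that binds TWEAK) rose, while the death receptors Fas, Tnfrsf1a and Tnfrsf25 were not called. Tnfrsf21, the death receptor DR6, went from 2.40, 3.58 and 3.17 FPKM to 25.3, 14.2 and 35.5, an 8.21-fold higher mean (difference 2.60, SE 0.32, adjusted p = 0.00506). Tnfrsf12a went from 23.8, 33.5 and 42.3 FPKM to 140, 74.1 and 172 (1.87, SE 0.34, adjusted p = 0.0137), and no other sorted group held as much. Tnfrsf10b, the mouse TRAIL receptor, rose from 2.42, 2.51 and 2.51 FPKM to 7.88, 4.57 and 10.3 (1.24, SE 0.27, adjusted p = 0.0225). Tumour replicate 10 was the lowest of its group for all 3, as it was for the summed macrophage markers. Of these markers 4 of 8 were called higher in these libraries. Tumour macrophage libraries held 29.7 to 39.9 FPKM of Tnfrsf21. They averaged 28.3 FPKM of Tnfrsf12a and 1.44 of Tnfrsf10b, below every tumour epithelial library. The part of macrophages was not tested. Of the 3 receptors, the call of Tnfrsf21 held in every alternative. That of Tnfrsf12a was lost without tumour replicate 9 (adjusted p = 0.0621) or WT replicate 8 (0.0608), with a range up to 0.0753, and that of Tnfrsf10b without any library but tumour replicate 10, with a range up to 0.169.

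Tnfrsf21 and Tnfrsf12a were also called in the other preparations except monocytes, in both directions. Tnfrsf21 fell in neutrophils, from 11.1, 12.1 and 13.5 FPKM to 7.31, 8.96 and 6.64 (difference -0.62, SE 0.14, adjusted p = 0.00405), and was called lower in macrophages, at 31.9, 29.7 and 39.9 FPKM beside 49.1 and 45.9 (-0.49, adjusted p = 0.0335), a call lost without any library but tumour replicate 3. Unsorted lung showed a 6.49-fold rise, from 3.34, 3.03 and 3.19 FPKM to 24.3, 19.1 and 18.7 (2.36, SE 0.13, adjusted p = 4.86e-05). Tnfrsf12a rose in total lung cells from 30.6, 36.4 and 18.4 FPKM to 63.5, 79.2 and 67.2 (1.31, adjusted p = 0.00385). It was slightly higher in tumour neutrophils, 17.2, 18.2 and 20.8 FPKM beside 14.7, 12.7 and 13.1 (0.45, adjusted p = 0.0102), a call lost when all 10 groups were fitted together (adjusted p = 0.228, the highest in a range from 0.00787). It was lower in tumour macrophages, 30.7, 28.9 and 25.2 beside 42.0 and 43.0 (-0.58, adjusted p = 0.00781), a call lost without either WT library. Fas, the receptor of Fasl, fell in neutrophils from 86.4, 93.4 and 70.3 FPKM to 52.1, 46.7 and 61.5 (-0.63, SE 0.15, adjusted p = 0.00547) and was called in no other preparation. Tnfrsf19, a receptor of stem and progenitor cells, was called lower in total lung cells at a mean of 0.494 FPKM beside 3.33.

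The tumour difference itself was compared between populations by an interaction term. Between macrophages and neutrophils it differed for 15 of 29 members, against 52.7% of all genes. Cd40 led, its difference in macrophages exceeding that in neutrophils by 3.75 (SE 0.63, adjusted p = 0.00047), followed by Tnfsf14 at 2.88 (SE 0.24, adjusted p = 2.99e-06), Tnfrsf14 at 2.21, Tnfrsf1b at 2.0 and Tnfrsf13c at 1.95. Of these, Cd40, Tnfsf14 and Tnfrsf1b were each called higher in macrophages and lower in neutrophils. Tnfrsf13c was called lower in neutrophils and was not called in macrophages. Between epithelial cells and neutrophils, whose gates are alike in both lungs, it differed for 10 of 28 members, against 34.5% of all genes, led by Tnfrsf21 at 3.23 (SE 0.36, adjusted p = 0.000118) and Tnfrsf1b at 2.39 (SE 0.32, adjusted p = 0.000284). The rise of Tnf did not differ beyond its spread between epithelial cells and neutrophils (-0.77, SE 0.67, adjusted p = 0.396), an estimate whose error leaves room for sizeable differences either way.

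Genes around the receptors were read from 5 lists chosen with earlier results of these data known. Of 20 receptor adaptors and ubiquitin ligases, all tested, 10 were higher and 2 lower in macrophages, 8 and 5 in neutrophils, 3 and 5 in epithelial cells, and 2 and 2 in total lung cells. Over all genes the shares higher and lower were 20.3% and 17.7% in macrophages, 33.3% and 25.8% in neutrophils, 14.9% and 8.89% in epithelial cells, and 22.1% and 20.4% in total lung cells, and the counts of every list are to be read against these. Traf1, an NF-kappaB-induced adaptor, was higher in tumour macrophages at 67.5, 101 and 27.8 FPKM beside 10.1 and 9.0 (difference 2.47), with replicate 3 again lowest. It was lower in tumour epithelium at 18.3, 32.7 and 19.0 FPKM beside 65.5, 68.5 and 64.0 (-1.51) and in tumour neutrophils at 42.6 to 60.2 beside 83.8 to 96.5 (-0.79). Traf6, which serves CD40 and Toll-like receptors, rose in neutrophils from 5.52 to 6.48 FPKM to 17.4 to 19.3 (1.48) and fell in epithelial cells (-0.73). Tank, a TRAF partner, Birc3, which adds ubiquitin to RIPK1, and Map3k14, the kinase NIK, rose in macrophages by 1.41, 1.35 and 1.20. In neutrophils Tank and Traf3 fell (-0.84 and -0.82). In epithelial cells Birc3 fell (-0.79) and Traf4 rose (0.71). Traf5 fell in total lung cells (-0.86), where Traf1 and Tradd rose slightly (0.46 and 0.40) and Ikbkb fell (-0.33). No gene of any of the 5 lists was called in monocytes.

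Of 10 death signalling genes, 5 were higher and 2 lower in macrophages, 5 and 2 of 9 tested in neutrophils, where more of all genes were called (33.3% and 25.8%, beside 20.3% and 17.7% in macrophages), and 4 higher and 0 lower in the epithelial and the total lung comparisons. Cflar, the caspase-8 inhibitor cFLIP, rose in macrophages from 23.4 and 20.3 FPKM to 98.3, 118 and 82.7 (difference 2.13, adjusted p = 0.000136). In neutrophils it rose from 13.1, 13.2 and 12.8 FPKM to 58.0, 87.2 and 66.5 (2.33, adjusted p = 1.17e-05), beside a rise of Casp8 from 4.95 to 5.65 to 12.6 to 14.9 FPKM (1.19). Bid, which carries the death signal to mitochondria, fell in neutrophils (-0.80) and rose in macrophages (0.87). Mlkl, the effector of necroptosis, rose in macrophages (0.87), in epithelial cells (1.61) and among total lung cells (1.05). Epithelial cells also gained Bid (1.70) and Dap (0.68), and total lung cells Cflar (1.09) and Dap (0.84).

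Of the 11 genes of TNF shedding and negative feedback, 10 were in the table; in macrophages 7 were higher and 2 lower of 10 tested, in neutrophils 5 and 3 of 8, in epithelial cells 3 and 1 of 10, and in total lung cells 6 and 1 of 10. In neutrophils 33.3% of all genes were higher and 25.8% lower. Tnfaip3, the deubiquitinase A20, rose from 308 and 288 FPKM to 818, 799 and 843 in macrophages (difference 1.46) and from 496 to 580 to 771 to 1325 in neutrophils (0.85). Nfkbia, the NF-kappaB inhibitor, rose in macrophages (1.29), neutrophils (0.97), epithelial cells (1.12) and total lung cells (1.70). Tnip3, an A20 partner, rose from 1.26 and 0.618 FPKM to 24.1, 25.1 and 20.9 in macrophages (3.67), and rose in epithelial cells (2.65) and total lung cells (1.31). Tnip1, of the same family, rose in macrophages (0.96) and epithelial cells (0.68). Timp3, which inhibits the sheddase ADAM17, fell in neutrophils from 10.7, 11.1 and 11.4 FPKM to 0.601, 0.562 and 1.28 (-2.75), and fell in epithelial cells (-0.92) and total lung cells (-2.86). Fibroblast markers, whose cells make TIMP3, fell for 5 of 5, 2 of 5 and 5 of 6 genes tested in the same comparisons. Endothelial markers fell for 8 of 8 in each of them. The part of fibroblasts and endothelial cells was not tested. Rhbdf2, which carries ADAM17 to the surface, fell in neutrophils (-0.76).

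Of 13 genes known to be induced by TNF, 11 were in the table; 8 of 10 tested were higher and 0 lower in macrophages, 6 and 2 in neutrophils, 6 and 0 in epithelial cells, and 9 and 0 in total lung cells. The shares of all genes called higher were 20.3%, 33.3%, 14.9% and 22.1% in the same order. Other stimuli induce the same genes. Vcam1, the adhesion molecule, rose from 0.404 and 0.889 FPKM to 56.5, 42.5 and 60.9 in macrophages (difference 5.04) and from 2.38, 0.879 and 6.89 to 64.2, 41.0 and 61.8 in epithelial cells (3.91). Cxcl1, a neutrophil attractant, rose in macrophages (1.96), neutrophils (2.29), epithelial cells (3.81) and total lung cells (3.94). Ccl2, a monocyte attractant, rose in macrophages (1.87) and epithelial cells (3.18). Neutrophils gained Icam1, from 117, 109 and 87.8 FPKM to 602, 558 and 590 (2.48), the survival gene Bcl2a1d (2.59) and Ier3 (1.63). Tnfaip2 rose in epithelial cells (3.21) and total lung cells (2.92), and Bcl2a1d in total lung cells (2.97). Cxcl2 rose in macrophages from 1200 and 1035 FPKM to 2200, 2179 and 2309 (1.0) and in total lung cells from 332, 385 and 339 to 3044, 6228 and 6464 (3.82); it is listed at 0 in all 6 neutrophil libraries and was not tested there.

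A small set of superfamily genes lies outside the naming rule. Of Eda, Eda2r, Edar, Ngfr and Relt, only Relt, an orphan receptor of the family, exceeded 5 FPKM. It rose in neutrophils from 14.1, 16.4 and 15.6 FPKM to 35.8, 29.1 and 31.2 (difference 1.01, SE 0.12, adjusted p = 0.000184) and in total lung cells from 9.60, 9.69 and 12 to 18.4, 21.1 and 25.2 (0.98, SE 0.14, adjusted p = 0.00183). In neutrophils Relt therefore rose while Tnfrsf1a, Tnfrsf1b, Fas, Tnfrsf21, Cd40 and Tnfrsf13c were called lower.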

How the data were processed

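RNA of 27 libraries was extracted with PicoPure and prepared with TruSeq RNA v2, per the labels' protocols. Reads were handled with CASAVA 1.8.2, TopHat2, Cufflinks and Cuffdiff on mm10 (GRCm38), per the submitters' processing notes. The values are FPKM per gene as deposited by the authors; totals of reads are unknown, an exact 0 can be a failed estimate, and whether strand was used is not given in the sources used here.

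Tumour and WT libraries of each preparation were compared with limma 3.58.1 (R 4.3.3, trend, two-sided) on log2(FPKM + 1), for genes at 1 FPKM or more in 2 or more compared libraries, with Benjamini-Hochberg adjustment over all genes tested. Each of the 5 comparisons was fitted on its own libraries, and 2 interactions compared changes between populations. Named members were up to 8 called ones per direction and comparison with the largest differences, 5 per interaction, and Tnf and Cd40 throughout; others were named by role after their values were seen. Members and gene lists were chosen with earlier results of these data known. Promoter sequences came from RefSeq (GRCm38.p6), which matched 30 of 37 members, and positions from GENCODE M21. Alternatives were other pseudocounts, filters and scalings, a fit of all 10 groups, genes listed at 0 in a group left out, a replicate block, and each library left out. Some genes of the death signalling list are counted but not reported here by name. Scripts were tested on simulated data. Tables used Python 3.11.15 with pandas 2.3.3 and numpy 2.4.6.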

Additional observations from a re-analysis of the deposited data

Results flagged for a closer look

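The difference between tumour and WT lung itself differed between populations, by an interaction term, for 10 members named here. In macrophages it exceeded that in neutrophils by 3.75 for Cd40, 2.88 for Tnfsf14, 2.21 for Tnfrsf14, 2.0 for Tnfrsf1b and 1.95 for Tnfrsf13c, on the log2(FPKM + 1) scale. The macrophage gates differ in CD11b between the lungs, so gate and tumour cannot be told apart in that population. In epithelial cells it exceeded that in neutrophils by 3.23 for Tnfrsf21, 2.39 for Tnfrsf1b, 1.45 for Tnfsf14, 1.43 for Tnfrsf12a and 1.42 for Tnfrsf1a. All epithelial libraries held at most 0.450 FPKM of Tnfsf14, so its value there reflects the neutrophils. Tnfrsf13c was not called in macrophages, at 0.439 to 1.94 FPKM in tumour and 1.05 and 1.55 in WT libraries. Tnfrsf1a was not called in epithelial cells. Both were called lower in neutrophils.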

How the results depend on the processing

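Of 52 called results for named members, 32 kept their call in every alternative, and none of 836 recomputed values was reversed; 755 kept direction and side of the threshold, 79 lost the call and 2 gained it. All 10 interactions given above kept theirs. In macrophages the number of members lower went from 4 to 0 in the fit of all 10 groups. In monocytes that fit gave 3 higher and 1 lower. In neutrophils 6 were higher with no filter. In epithelial cells 8 were higher in the fit of all 10 groups and 2 with the replicate block, and the number lower was 1 with a filter of 5 FPKM and 0 with the block. In total lung cells 4 were lower with no filter, in the fit of all 10 groups and with the replicate block. Leaving out 1 library gave, for members higher and lower, 8 to 15 and 0 to 3 in macrophages, 0 to 1 and 0 to 0 in monocytes, 3 to 4 and 8 to 9 in neutrophils, 2 to 7 and 0 to 3 in epithelial cells, and 13 to 14 and 3 to 6 in total lung cells; the interactions gave 12 to 18 and 8 to 11. Over all genes the number higher and lower in epithelial cells was 2974 and 2369 in the fit of all 10 groups, 307 and 90 with the block, 386 to 2420 and 104 to 1795 without 1 library, and 647 lower with no filter. In monocytes it was 540 and 612 in the fit of all 10 groups and 161 and 149 without tumour replicate 5. In macrophages it was 1105 to 2390 and 673 to 2130 without 1 library. The block gave 1904 higher in neutrophils, and 1285 higher and 1138 lower in total lung cells. Upper-quartile scaling moved the median of all genes in epithelial cells from 0.01 to 0.13. Libraries of the same number correlated at -0.170 to 0.082 in their deviations from the group means, so the numbers were not taken to pair them. The replicate block ended 12 calls on named members, among them those of Cd40, Tnfrsf1b and Tnfrsf12a in neutrophils (adjusted p = 0.0812, 0.0907 and 0.0966) and Tnfrsf1b in epithelial cells (0.0538). The titles number tumour and WT libraries separately, so a shared number need not mark a shared sample or batch. In the block, a library whose number has no partner adds nothing to the difference, and few degrees of freedom remain. Calls that it ended therefore say nothing of pairing or batch. No replicate block was fitted for monocytes, which share 1 number. The cause of these changes was not tested. Depth is known only relatively, so members listed near 0 have no stated precision.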
